A study of Homo sapiens with 18 samples.

Results

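The comparison described here is NCI-H1693 cells kept for 48 h in 50 nM PRT3789 against NCI-H1693 cells kept for 48 h in DMSO. Its members are the 6 libraries that the labels place at 48 h, 3 with PRT3789 and 3 with DMSO, out of 18 libraries in the series, and every gene of the count table was considered. The other 12 libraries hold the same pair of treatments at 6 h and at 72 h, 3 libraries per group. NCI-H1693 is an established line grown from a human non-small cell lung tumour. The labels describe it as SMARCA4-deficient, so the cells of both groups lack that protein by label. It is a single line in culture, grown in serum-containing medium, and the labels do not say whether the 3 libraries of a group came from separate cultures. The p-values below therefore measure the spread between libraries, which may be technical.

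SMARCA2 and SMARCA4 are the alternative ATPase motors of the SWI/SNF chromatin remodelling complexes, which slide and evict nucleosomes at enhancers and promoters. Cancer cells without SMARCA4 often depend on SMARCA2 as the remaining motor. PRT3789 is a degrader, a small molecule that brings SMARCA2 to an E3 ubiquitin ligase so that the protein is destroyed by the proteasome. A degrader acts on the protein, so the SMARCA2 transcript does not report whether it worked, and protein was not measured in the libraries used here.

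The 48 h libraries held 27023192, 23154484 and 28702666 counts with PRT3789, and 26915097, 31094797 and 27000000 counts with DMSO. The total of DMSO replicate 3 is an exact round number, and whether that library was scaled or subsampled before deposit is not given in the sources used here. Levels are given in CPM, the counts scaled to a common library total with composition factors (TMM), and log2 fold changes (log2FC) are PRT3789 over DMSO with their standard error (SE). A gene was called at an adjusted p under 0.05 in edgeR's quasi-likelihood test with Benjamini-Hochberg adjustment, and every adjusted p below is of that kind. The PRT3789 libraries were more alike than the DMSO libraries, with a median SD of log2 CPM of 0.0677 in PRT3789 and 0.121 in DMSO over 11880 genes. The libraries also differed along transcript length. Taken over genes, each library's departure from the mean of the 6 libraries correlated with gene length at a Spearman's rho of 0.119 to 0.192 in the PRT3789 libraries and 0.0165, -0.279 and -0.2 in DMSO libraries 1, 2 and 3. The median log2FC ran between -0.20 in the shortest 10% of genes and 0.21 in the longest 10%. Where removing this trend moved the counts of a list by 3 or more or turned its median, the counts without it are given beside the list.

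Some genes were high in a single library of their group. The rule asked for a highest library of at least 3 CPM within a 48 h group. That library had to stand at least 2 times above the next after adding 0.3 CPM to both. Groups below 3 CPM were thus not screened, among them PRT3789 for VTCN1, GABRP and TNNT2, and XIST and TSIX were not counted. In all, 39 genes met the rule, and 12 of them were called. DMSO replicate 1 held 18 of these genes, among them SPP1, CXCL8 and KRT5, PRT3789 replicate 3 held 12, among them SFTPA2, CD74 and PLAU, and PRT3789 replicate 2 held 7, among them ALB and AFP. These genes are left out of the examples below unless said otherwise, and counts of a list that change without them are given both ways. All 10 epithelial markers, EPCAM and CDH1 included, were above 10 CPM in all 6 libraries, with a summed level of 5549 to 5790 CPM in PRT3789 and 11230 to 12040 CPM in DMSO. Of 22 blood cell markers, 20 were at or below 1 CPM in every library, with sums of 2.29 to 3.93 CPM in PRT3789 and 2.64 to 3.99 CPM in DMSO, and CD163, NKG7, HBA1 and HBB were among those with no count. Of 18 endothelial and fibroblast markers, 10 were at or below 1 CPM in every library, THY1, PECAM1 and VWF among them. COL1A1, LUM and FAP were well above it. The sums were 102 to 110 CPM in PRT3789 and 129 to 146 CPM in DMSO. Of the 10 markers tested, 2 rose and 4 fell. The endothelial marker CDH5 had 0.036, 0.041 and 0 CPM in PRT3789, against 2.27, 2.65 and 1.98 CPM in DMSO (log2FC -6.32, adjusted p = 1.6e-07). ESAM, another, had 1.21, 1.33 and 1.06 CPM in PRT3789, against 6.63, 7.79 and 6.9 CPM in DMSO (log2FC -2.57, adjusted p = 9.1e-11).

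After 48 h, PRT3789 had moved a large share of the expressed genes in both directions, and the large changes were mostly falls. Of 16291 genes tested, 3451 were higher and 3402 lower in PRT3789 than in DMSO, which is 42.1% of the genes tested, 21.2% higher and 20.9% lower. Changes of at least 2-fold were called for 714 rises (4.38%) and 1093 falls (6.71%), and changes of at least 8-fold for 34 rises and 231 falls. The typical called change was smaller: the median called rise was 0.56 and the median called fall was -0.65 on the log2 scale. Genes that rose at least 2-fold took 3.44% ± 0.0426 of all counts in PRT3789 and 1.28% ± 0.052 in DMSO, and genes that fell at least 2-fold took 2.14% ± 0.0244 in PRT3789 and 5.73% ± 0.0791 in DMSO (SD, n = 3 each). The median log2FC over all tested genes was 0.01. The libraries of the groups did not overlap in 56.2% of tested genes, and among called genes 152 still overlapped. Genes named from the lists below were picked by small p or after their values were seen, which favours groups without overlap. Where their libraries are said not to overlap, this describes the levels and is no separate result. Protein-coding genes were called in 45.0% of 13597 cases and long non-coding RNAs in 27.5% of 1951. The counts of each gene list below stand against the 42.1% called over all tested genes. Some lists were near or below that share. Among them were antiviral interferon-stimulated genes (43.6%), MHC class II (36.4%), regulators of G protein signalling (33.3%) and lung and endoderm lineage genes (31.6%). In bulk RNA, fewer cells with a transcript and less of it per cell cannot be told apart.

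**Figure D1:**
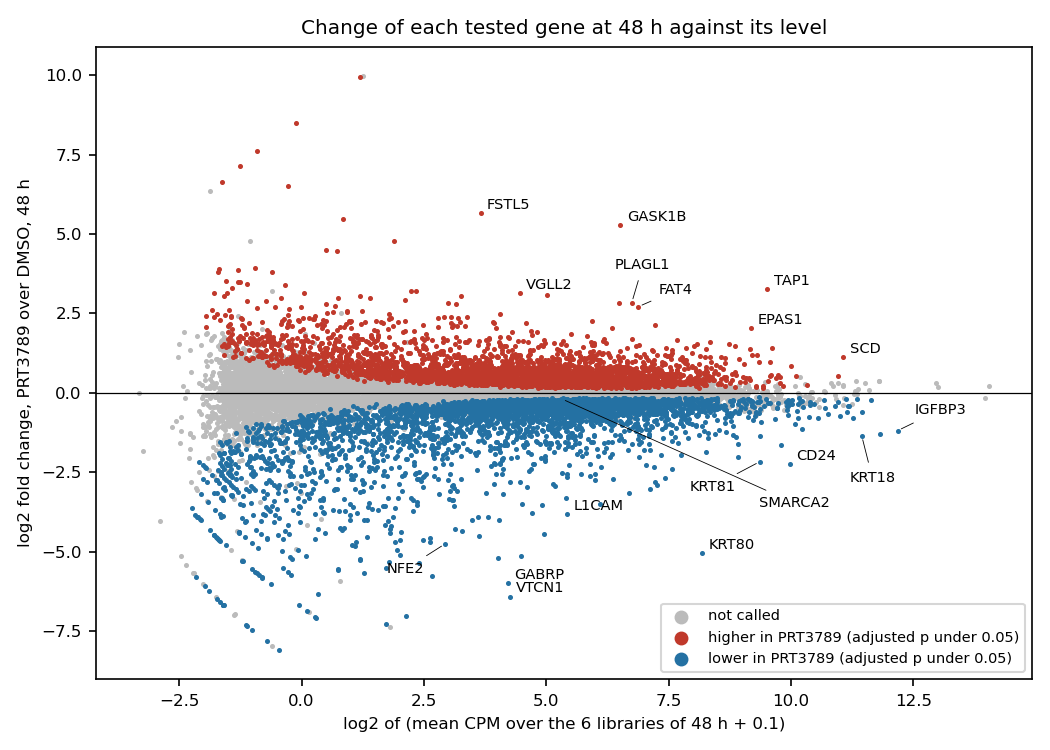
Log2 fold change of PRT3789 over DMSO at 48 h for each of 16291 tested genes, against the log2 of its mean CPM over the 6 libraries plus 0.1. Red points are called higher in PRT3789, blue points are called lower and grey points are not called; TAP1 and GASK1B stand out among rises at high level, and KRT80 and VTCN1 among falls, while SMARCA2 lies near 0.

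The SMARCA2 transcript (chr9:2015347-2193620, GRCh38.p14) had 39.1, 34.9 and 37.0 CPM in PRT3789 libraries, against 44.3, 40.2 and 42.0 CPM in DMSO libraries. Every PRT3789 library was below every DMSO library. The difference did not pass edgeR's test across all genes (log2FC -0.19, SE 0.10, adjusted p = 0.13), but the call depends on the fit. With edgeR, SMARCA2 passed at an adjusted p of 0.045 with the replicate block within each time, 0.043 with the times fitted apart, 0.02 with the 48 and 72 h libraries only, and 0.000315 with the length trend removed, where the log2FC was -0.32. SMARCA4 transcript was present at 9.46, 10.2 and 11 CPM in PRT3789, against 9.28, 10.9 and 9.26 CPM in DMSO, and the groups overlapped. Of 26 SWI/SNF subunit genes tested, 12 rose, 4 fell and 10 did not pass, with a median log2FC of 0.18. ARID1A, the large subunit of the canonical complex, had 320, 253 and 288 CPM in PRT3789, against 163, 133 and 114 CPM in DMSO (log2FC 1.07, SE 0.18, adjusted p = 0.00012). Its paralog ARID1B rose by 0.75 on the log2 scale. The falls included ACTL6A, an actin-related subunit, at -0.53, SMARCD2 at -0.49 and the bromodomain subunit BRD7 at -0.35. With the length trend removed, 9 SWI/SNF genes rose and 5 fell. None of the 7 genes of the VHL ubiquitin ligase list passed the main test in either direction, but some depended on the fit. With edgeR on the 48 and 72 h libraries only, ELOB and RBX1 passed as falls (adjusted p = 0.0083 and 0.02). With the times fitted apart they passed at 0.011 and 0.036. CUL2 passed as a rise without DMSO replicate 3 (edgeR, adjusted p = 0.044). Polycomb genes were called at 8 rises and 4 falls of 29 tested (41.4%), near the 42.1% called over all tested genes. EZH1, a histone H3 lysine 27 methyltransferase, rose by 0.81 on the log2 scale. Chromatin remodellers of other families gave 6 rises of 17 (35.3%), or 5 rises and 1 fall with the length trend removed. BPTF, a subunit of the NURF complex, rose by 0.60.

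The largest rise among genes with a mean of at least 5 CPM was FSTL5 (chr4:161383897-162164000), which encodes a follistatin-like secreted protein. FSTL5 had 23.8, 24.6 and 25.4 CPM in PRT3789, against 0.745, 0.351 and 0.367 CPM in DMSO. GASK1B (chr4:158124474-158173025), a Golgi protein of the FAM20 kinase family, had 166, 185 and 183 CPM in PRT3789, against 4.17, 4.28 and 5.36 CPM in DMSO. FSTL5 was below 1 CPM in every DMSO library, while GASK1B was expressed there at a low level. With PRT3789, FSTL5 was 50.6-fold higher (log2FC 5.66, SE 0.21, adjusted p = 9.4e-13) and GASK1B 38.7-fold higher (log2FC 5.27, SE 0.14, adjusted p = 2.3e-14).

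The next rises were transcription regulators and signalling genes. VGLL2, a cofactor of TEAD transcription factors, had 38.0, 39.7 and 40.1 CPM in PRT3789, against 4.10, 4.69 and 4.48 CPM in DMSO (log2FC 3.15). RGS2, which switches off Gq-coupled signals, had 53.6, 63.3 and 56.4 CPM in PRT3789, against 6.71, 7.31 and 6.43 CPM in DMSO (log2FC 3.08). PLAGL1, an imprinted zinc finger factor, had 184, 190 and 191 CPM in PRT3789, against 25.5, 25.7 and 27.9 CPM in DMSO (log2FC 2.83). In each of these genes the lowest PRT3789 library was several times above the highest DMSO library. KITLG, the ligand of the KIT receptor, followed with 154, 160 and 158 CPM in PRT3789, against 22.5, 19.7 and 24.4 CPM in DMSO (log2FC 2.83, SE 0.12). FAT4, an atypical cadherin, rose by 2.71, HNF4G, a nuclear receptor of gut epithelium, by 2.81, and COL3A1, a fibrillar collagen, by 2.83 on the log2 scale. SLITRK5, a neuronal transmembrane protein, rose by 2.48, ANKS1B by 2.40, GLI1, the transcriptional effector of Hedgehog signals, by 2.39, the guidance molecule SEMA5A by 2.36, and HIVEP2-DT, a transcript divergent from HIVEP2, by 3.04. That the libraries do not overlap was a condition for naming these genes and is no result about them.

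Falls went further than rises, and several transcripts were nearly gone. VTCN1 (chr1:117143587-117210927), which encodes the immune checkpoint ligand B7-H4, had 0.711, 0.290 and 0.298 CPM in PRT3789, against 35.7, 38.8 and 38.2 CPM in DMSO. GABRP, a GABA-A receptor subunit found in epithelia, had 0.996, 0.331 and 0.365 CPM in PRT3789, against 32.5, 39.2 and 38.2 CPM in DMSO. PRT3789 libraries of both genes stayed at or below 1 CPM, so that VTCN1 was 85.2-fold lower (log2FC -6.41, SE 0.20, adjusted p = 1.4e-13) and GABRP 63.8-fold lower (log2FC -6.0, SE 0.24, adjusted p = 2.5e-12). Without PRT3789 replicate 1 the log2FC of GABRP was -6.71. KRT80 (chr12:52168996-52192014), a keratin of differentiating epithelia, had 18.7, 16.6 and 15.9 CPM in PRT3789, against 584, 561 and 542 CPM in DMSO. Every PRT3789 library of KRT80 was far below every DMSO library, and the level was 32.9-fold lower (log2FC -5.04, SE 0.15, adjusted p = 1e-13).

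TNNT2, cardiac troponin T, had 0, 0.497 and 0.199 CPM in PRT3789, against 12.5, 12.5 and 11.8 CPM in DMSO (log2FC -5.77, SE 0.42). ALPP, placental alkaline phosphatase, had 1.56, 1.24 and 0.895 CPM in PRT3789, against 49.0, 41.3 and 39.0 CPM in DMSO (log2FC -5.13). NFE2, a transcription factor best known from platelet formation, had 0.498, 0.539 and 0.564 CPM in PRT3789, against 15.1, 14.1 and 14.4 CPM in DMSO (log2FC -4.75). These low PRT3789 levels rest on few reads, so the size of each fold is less certain than its direction; without PRT3789 replicate 2 the log2FC of TNNT2 was -6.85. The rest of the 15 largest falls among genes averaging 5 CPM or more at 48 h covered a proton pump subunit, ATP6V1B1 (log2FC -5.19), an annexin, ANXA8L1 (-5.35), the endosomal RNA sensor TLR7 (-4.68), involucrin IVL of the cornified envelope (-4.62), the enamel gene ODAPH (-4.58), a calcium channel subunit, CACNG4 (-4.52), the guanylate-binding protein GBP2 (-4.45), the secreted protease KLK6 (-4.35) and the chloride channel family member CLIC5 (-4.29). ANXA8L1 has near-identical annexin copies, between which the authors' counting could split reads, so its value is uncertain.

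**Figure D2:**
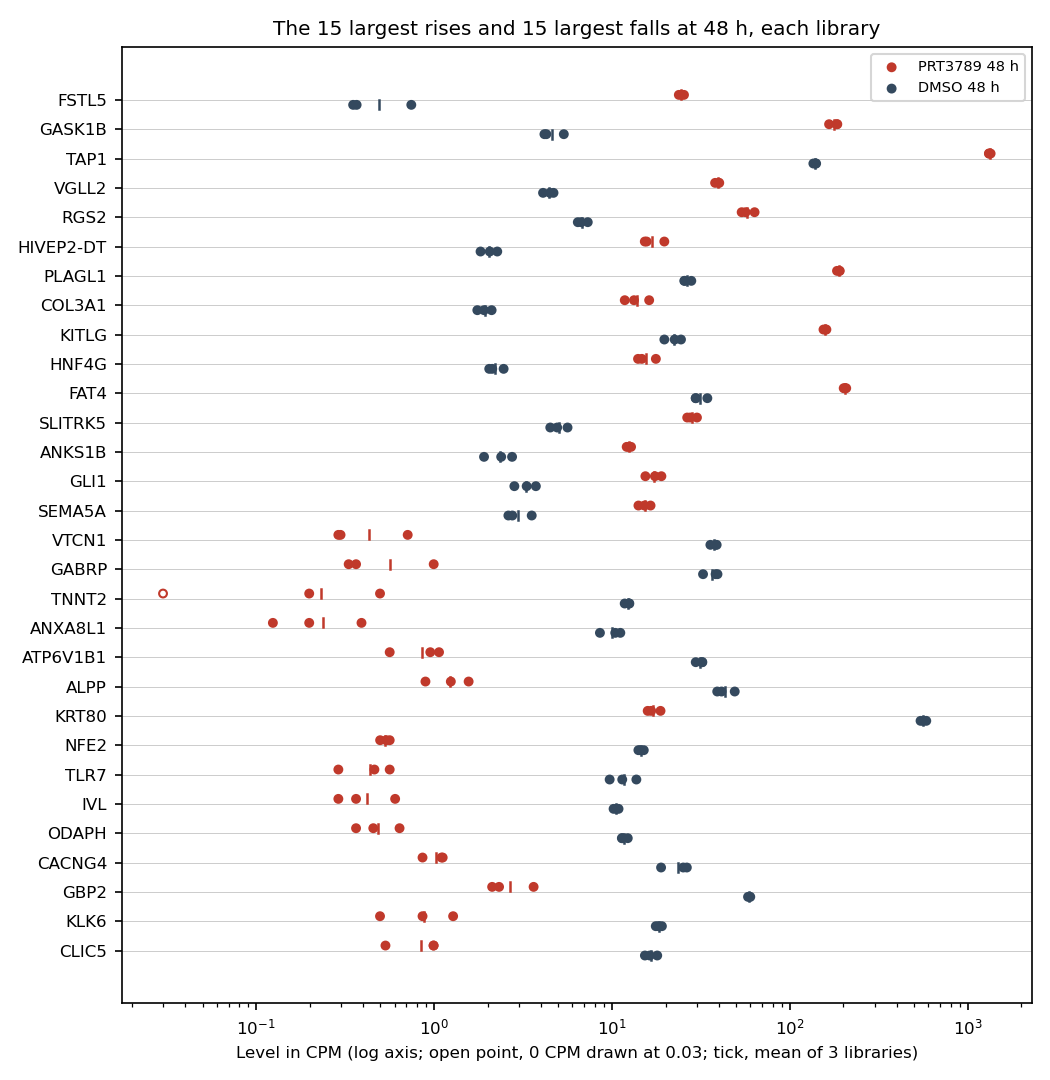
Level in CPM (log axis) of the 15 largest called rises and 15 largest called falls at 48 h, 1 point per library, PRT3789 in red and DMSO in dark blue, with a tick at each group mean. FSTL5 and GASK1B show the widest gaps among rises and VTCN1 and GABRP among falls; the TNNT2 library without a count is an open point drawn at 0.03 CPM.

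Promoter letters differed between genes that fell and genes that rose. AP-1 factors are dimers of FOS and JUN proteins that open enhancers and promoters of many epithelial genes. The windows are the 250 bases before each gene's start in RefSeq (GRCh38.p14), and both strands were searched for the letters of 5 motifs. The AP-1 letters TGANTCA were present in 76 of 756 windows (10.1%) of genes at least 2-fold lower, in 18 of 528 windows (3.41%) of genes at least 2-fold higher, and in 4.1% of 12540 windows of all tested genes. Over all called genes the shares were closer, at 5.69% of 2564 windows of lower genes and 3.48% of 2762 windows of higher genes. Among genes named in this comparison, 13 of 70 windows of falls of at least 2-fold held them, and 0 of 48 windows of rises of at least 2-fold. Named genes are part of the same windows and were picked from these data, so their counts are no further evidence. TEAD letters GGAATG were in 11% of windows of the lower genes, 12.9% of the higher and 9.47% of all, and the interferon response element letters (GAAA, any 2 bases, GAAA) in 2.65%, 2.65% and 2.32%. The CCAAT letters were in 31.5%, 31.6% and 34.4%, and the kappaB letters (GGG, any 5 bases, CC) in 70.4%, 70.3% and 68.6%, where a pattern that loose marks most windows. A match is a run of letters and not a bound site. Some of the 13 windows of named falls with the AP-1 letters are shown here, with the match in capitals. IVL and ODAPH are among the largest falls. SPRR3, IL23A and TNFSF15 were chosen as examples from the cornified envelope and cytokine lists, without a fixed rule. The other windows of named falls with the letters are not shown.
IVL (chr1:152908296-152908545, plus strand): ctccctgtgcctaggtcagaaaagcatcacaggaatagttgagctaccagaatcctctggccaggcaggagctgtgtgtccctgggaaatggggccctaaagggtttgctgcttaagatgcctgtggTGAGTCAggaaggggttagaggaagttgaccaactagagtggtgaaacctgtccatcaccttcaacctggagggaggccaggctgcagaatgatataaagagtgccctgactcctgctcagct
ODAPH (chr4:75555816-75556065, plus strand): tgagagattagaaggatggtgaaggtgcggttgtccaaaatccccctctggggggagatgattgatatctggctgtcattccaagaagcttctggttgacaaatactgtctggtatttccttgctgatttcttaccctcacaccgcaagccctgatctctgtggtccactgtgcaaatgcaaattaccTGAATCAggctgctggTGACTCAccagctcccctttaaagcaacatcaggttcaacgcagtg
SPRR3 (chr1:153001499-153001748, plus strand): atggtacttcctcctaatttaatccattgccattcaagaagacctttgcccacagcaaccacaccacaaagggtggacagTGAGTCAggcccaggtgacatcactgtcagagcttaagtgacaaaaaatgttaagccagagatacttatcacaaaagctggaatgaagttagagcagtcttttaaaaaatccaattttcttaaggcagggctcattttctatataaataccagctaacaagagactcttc
IL23A (chr12:56338634-56338883, plus strand): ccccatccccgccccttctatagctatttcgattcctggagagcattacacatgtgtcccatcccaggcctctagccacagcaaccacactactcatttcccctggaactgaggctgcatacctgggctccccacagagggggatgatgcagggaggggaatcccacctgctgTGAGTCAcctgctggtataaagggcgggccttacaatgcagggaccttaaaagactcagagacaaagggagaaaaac
TNFSF15 (chr9:114792531-114792780, minus strand): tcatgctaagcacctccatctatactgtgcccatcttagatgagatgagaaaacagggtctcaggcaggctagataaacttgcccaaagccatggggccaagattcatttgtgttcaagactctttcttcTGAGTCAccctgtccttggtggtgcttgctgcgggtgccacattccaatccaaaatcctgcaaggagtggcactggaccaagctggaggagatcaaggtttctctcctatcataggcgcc

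IVL and SPRR3 (log2FC -5.11, or -6.08 without PRT3789 replicate 1) build the cornified envelope of squamous cells, IL23A (-2.57) and TNFSF15 (-2.13) encode cytokines, and the ODAPH window held the letters at a pair of places. The AP-1 and early response factors themselves were split, with 9 rises and 8 falls of 25 tested. NR4A3, an orphan nuclear receptor, had 9.64, 8.91 and 8.16 CPM in PRT3789, against 1.27, 0.607 and 1.03 CPM in DMSO (log2FC 3.21). ATF3, a stress-induced partner of JUN, rose by 1.60 and MAFF, a small MAF factor, by 1.31, while IER5 fell by 1.72 on the log2 scale.

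Most genes with the largest changes in CPM moved by smaller folds. TAP1 (log2FC 3.26), described below with MHC class I, was an exception among the rises of this set. Among rises, the lipid desaturase SCD moved the most CPM, with 2944, 2934 and 2974 CPM in PRT3789, against 1507, 1205 and 1326 CPM in DMSO (log2FC 1.13, SE 0.12, adjusted p = 8.1e-07). EPAS1, which encodes the hypoxia-inducible factor HIF-2 alpha, had 934, 926 and 952 CPM in PRT3789, against 245, 221 and 213 CPM in DMSO (log2FC 2.05). Other rises in this set were the actin-binding genes SVIL (1.40), MYO1C (0.97) and IQGAP1 (1.18), the coactivator CITED2 (1.39), the autophagy gene VMP1 (0.85), the matricellular thrombospondin THBS1 (1.2) and clathrin heavy chain CLTC (0.52, adjusted p = 0.01). IGFBP3, which binds insulin-like growth factors, fell the most in CPM, with 2815, 2883 and 2762 CPM in PRT3789, against 5934, 6742 and 6632 CPM in DMSO (log2FC -1.19). The surface glycoprotein CD24 had 354, 357 and 344 CPM in PRT3789, against 1741, 1568 and 1706 CPM in DMSO (log2FC -2.25, SE 0.07, adjusted p = 1.5e-13). The absence of overlap was again a condition for naming these genes, and CLTC lost its call without DMSO replicate 2 (adjusted p = 0.058, edgeR). The remaining falls were the protease PRSS23 (-1.65), the protease inhibitor SPINT2 (-0.61), the glycolytic enzyme PKM (-0.73), and the cytoskeletal genes TUBA1B (-0.78), ACTG1 (-0.60) and FLNA (-1.12), beside KRT8 and KRT18 described with the keratins.

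Most genes that load peptides onto MHC class I rose. These genes cut proteins into peptides, carry the peptides into the endoplasmic reticulum and fold them into class I molecules for display to T cells. TAP1 (chr6:32845209-32853704), a subunit of the peptide transporter, had 1313, 1318 and 1343 CPM in PRT3789, against 139, 140 and 135 CPM in DMSO. The libraries of each group were nearly level and far from the other group, and TAP1 was 9.57-fold higher (log2FC 3.26, SE 0.06, adjusted p = 2.8e-16), the smallest p of any gene tested at 48 h. Its partner TAP2 had 380, 385 and 385 CPM in PRT3789, against 138, 142 and 131 CPM in DMSO (log2FC 1.49). PSMB9 (chr6:32854192-32859851), a catalytic subunit of the immunoproteasome, had 230, 256 and 239 CPM in PRT3789, against 49.0, 61.4 and 55.8 CPM in DMSO (log2FC 2.12, SE 0.16). PSMB8, its neighbour in the same complex, rose by 1.33, while the third catalytic subunit PSMB10 fell by 0.77 on the log2 scale (adjusted p = 0.0013).

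TAP1 and PSMB9 lie head to head on chromosome 6, with start sites 488 bases apart, so that both windows come from the stretch between them. They are shown because the genes rose together, with the interferon response element letters in capitals.
TAP1 (chr6:32853705-32853954, minus strand): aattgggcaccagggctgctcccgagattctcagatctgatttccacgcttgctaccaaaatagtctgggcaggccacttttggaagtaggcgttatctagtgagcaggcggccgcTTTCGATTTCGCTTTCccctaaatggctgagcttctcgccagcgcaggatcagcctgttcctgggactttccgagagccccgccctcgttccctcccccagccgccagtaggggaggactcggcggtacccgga
PSMB9 (chr6:32853942-32854191, plus strand): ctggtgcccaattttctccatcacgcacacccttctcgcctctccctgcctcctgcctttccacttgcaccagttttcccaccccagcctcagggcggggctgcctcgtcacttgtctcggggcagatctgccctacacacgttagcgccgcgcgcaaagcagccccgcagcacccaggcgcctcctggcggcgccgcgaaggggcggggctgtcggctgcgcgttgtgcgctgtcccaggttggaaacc

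The TAP1 window held the letters as 2 overlapping matches on the strand opposite to the one printed, between positions -134 and -119 from the start site, and the PSMB9 window held none. Across the MHC class I and peptide loading list, 11 of 18 tested genes rose, 1 fell and 6 did not pass, with a median log2FC of 0.31. Class I heavy chains rose less than the transporter: HLA-F by 1.51, HLA-E by 0.93, HLA-C by 0.51 and HLA-B by 0.37 on the log2 scale. HLA-C had 1259, 1335 and 1308 CPM in PRT3789, against 850, 975 and 907 CPM in DMSO. B2M, the light chain, had 582, 677 and 604 CPM in PRT3789, against 593, 771 and 886 CPM in DMSO, and these overlapped (adjusted p = 0.34). NLRC5, the transactivator of class I genes, was at 4.41, 4.47 and 5.40 CPM in PRT3789, against 2.94, 3.74 and 2.20 CPM in DMSO (log2FC 0.68, adjusted p = 0.013). Class I genes are near copies of each other, so reads could be split between them in the authors' counting. Of 11 class II genes tested, 2 rose and 2 fell. Of these, HLA-DPA1 lost its rise without PRT3789 replicate 3 (edgeR, adjusted p = 0.17), without DMSO replicate 1 (0.073) and with no filter (0.051), and HLA-DMA lost its fall in 5 settings (edgeR, adjusted p 0.053 to 0.083), among them the replicate block within each time and the samples without PRT3789 replicate 1, PRT3789 replicate 2 or DMSO replicate 2. HLA-DRB1 rose by 0.94 and HLA-DQB1 fell by 0.67, and 2 genes of the list, CD74 and HLA-DRA, were high in PRT3789 replicate 3 alone.

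**Figure D3:**
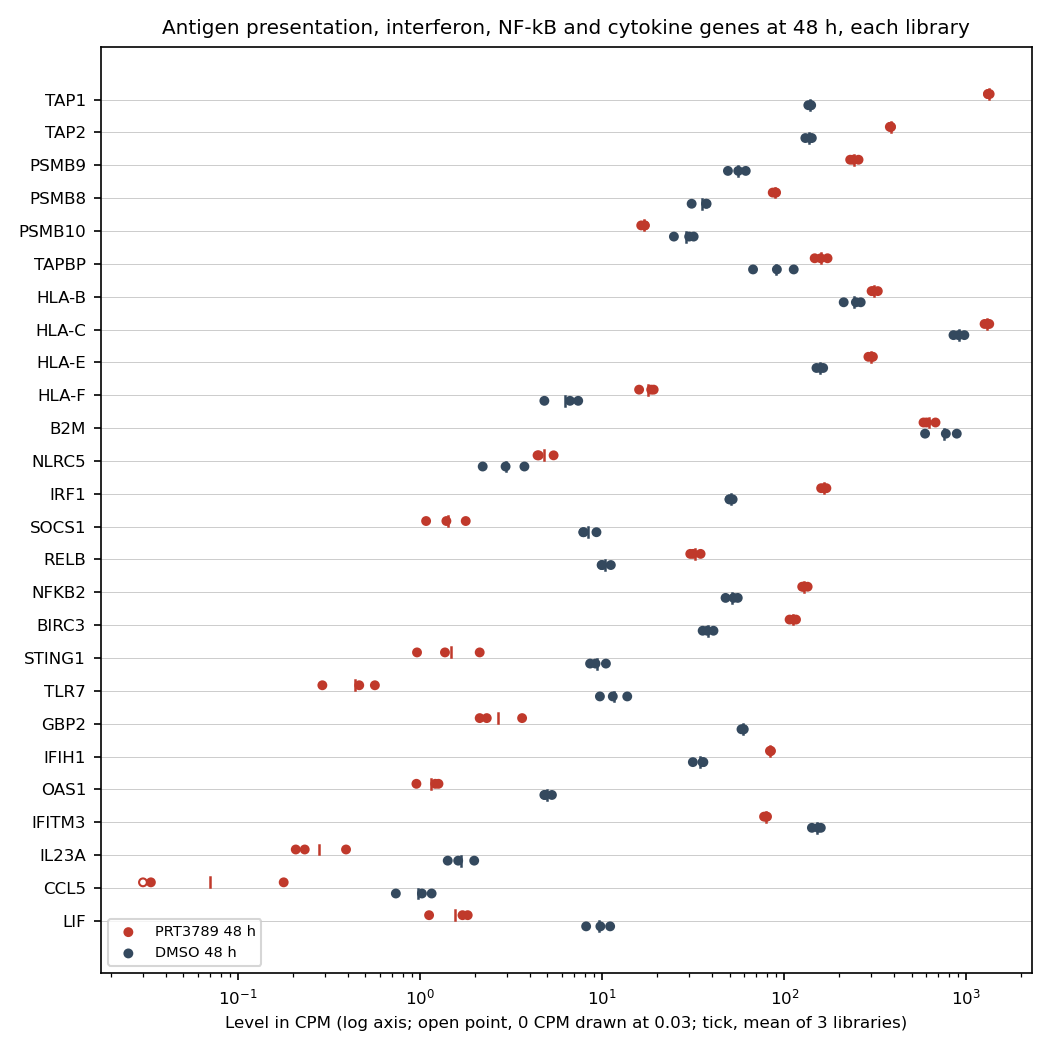
Level in CPM (log axis) of antigen presentation, interferon, NF-kB, sensor and cytokine genes at 48 h, 1 point per library, PRT3789 in red and DMSO in dark blue, with a tick at each group mean. TAP1, TAP2, PSMB9, IRF1 and RELB lie to the right in PRT3789, TLR7, GBP2, STING1 and LIF lie to the left, and B2M overlaps.

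Interferon genes did not move as a block. Of 21 interferon receptor and signalling genes, 7 rose and 3 fell (47.6% called, against 42.1% of all tested genes). IRF1, a transcription factor that switches on class I genes, had 165, 159 and 170 CPM in PRT3789, against 50.1, 52.0 and 50.0 CPM in DMSO (log2FC 1.70, SE 0.06, adjusted p = 3.8e-13). SOCS1, a feedback inhibitor of the same receptors, had 1.78, 1.08 and 1.39 CPM in PRT3789, against 7.86, 9.29 and 7.90 CPM in DMSO (log2FC -2.55). IRF1 was thus higher and SOCS1 lower in every PRT3789 library. Antiviral interferon-stimulated genes gave 5 rises and 12 falls of 39 tested (43.6% called, near the 42.1% of all tested genes). Over all tested genes 21.2% rose and 20.9% fell. The median log2FC of the antiviral list was -0.04, and with the length trend removed it gave 8 rises and 13 falls. IFITM2 and IFITM3, membrane proteins that block viral entry, fell by 0.96 and 0.94, SAMD9L by 1.14, and APOL1 by 0.96 on the log2 scale. Among 4 guanylate-binding proteins tested, GBP2 was the single fall, with 3.63, 2.32 and 2.12 CPM in PRT3789, against 58.2, 59.3 and 59.9 CPM in DMSO, and GBP1, GBP3 and GBP4 did not pass.

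Nucleic acid sensors were split, with 4 rises and 7 falls of 15 tested. TLR7 had 0.462, 0.290 and 0.564 CPM in PRT3789, against 13.7, 9.71 and 11.4 CPM in DMSO. STING1, the adaptor of cytosolic DNA sensing, had 0.960, 1.37 and 2.12 CPM in PRT3789, against 8.57, 10.5 and 9.18 CPM in DMSO (log2FC -2.65). The kinase IKBKE fell by 1.09, while IFIH1, which senses long double-stranded RNA, had 83.4, 84.4 and 84.0 CPM in PRT3789, against 35.9, 31.4 and 35.5 CPM in DMSO (log2FC 1.29).

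Most NF-kB genes rose, with 14 rises and 3 falls of 20 tested and a median log2FC of 0.70. NF-kB factors drive inflammatory and survival genes and induce their own inhibitors. RELB, a factor of the non-canonical arm, had 34.7, 31.6 and 30.4 CPM in PRT3789, against 9.99, 11.1 and 9.92 CPM in DMSO (log2FC 1.64, SE 0.10). NFKB2, its partner, had 134, 125 and 127 CPM in PRT3789, against 55.5, 52.6 and 47.6 CPM in DMSO (log2FC 1.31). BIRC3, a ubiquitin ligase of TNF signalling, rose by 1.55, the deubiquitinase CYLD by 1.47 and the inhibitor TNFAIP3 by 1.09 on the log2 scale, and no PRT3789 library of these genes overlapped a DMSO library. Cytokines and chemokines did not rise with them. There, 2 rose and 10 fell of 25 tested, or 2 and 9 of 23 without genes high in 1 library, and the median was -1.65. LIF, a cytokine of the IL-6 family, had 1.71, 1.12 and 1.82 CPM in PRT3789, against 9.76, 11 and 8.15 CPM in DMSO (log2FC -2.62). TNFSF15 had 5.37, 6.75 and 6.80 CPM in PRT3789, against 28.0, 26.2 and 28.4 CPM in DMSO, and the DMSO libraries were all several times higher. Among immune checkpoint ligands, 3 rose and 5 fell of 16. Besides VTCN1, the NKG2D ligands ULBP2 and MICB fell by 1.52 and 0.40, and NECTIN2, which binds TIGIT, rose by 0.72.

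Many epithelial differentiation genes fell. Keratins form the intermediate filaments of epithelial cells, and of 15 tested none rose and 10 fell, with a median log2FC of -1.35; without genes high in 1 library 9 of 13 fell. KRT8 had 2207, 2047 and 2057 CPM in PRT3789, against 5314, 5123 and 5004 CPM in DMSO (log2FC -1.29). KRT18, its filament partner, had 1627, 1556 and 1529 CPM in PRT3789, against 4313, 3877 and 3809 CPM in DMSO (log2FC -1.35). The hair keratins KRT81 (-2.16) and KRT86 (-3.08) are close copies, so their reads could be split. The summed keratin level was 4226 to 4499 CPM in PRT3789 and 10890 to 11700 CPM in DMSO. All keratin calls were falls, and the PRT3789 and DMSO sums were far apart. Cornified envelope genes gave 8 falls and no rise of 17 tested, with IVL, SPRR3, SPRR1B (-2.96) and the protease KLK5 (-3.77, or -5.33 without PRT3789 replicate 1) leading. S100 proteins, small calcium-binding proteins, gave 9 falls and no rise of 10. S100A10 had 168, 181 and 167 CPM in PRT3789, against 437, 473 and 469 CPM in DMSO, and S100A4 fell by 3.10 on the log2 scale.

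Cell junction genes were divided rather than lost. Claudins and tight junction genes gave 6 rises and 10 falls of 21. CLDN4 had 250, 258 and 258 CPM in PRT3789, against 583, 696 and 639 CPM in DMSO (log2FC -1.33), while CLDN1 had 231, 242 and 239 CPM in PRT3789, against 107, 98.4 and 107 CPM in DMSO (log2FC 1.19). The claudins thus moved in opposite directions, each without overlap. In adherens junctions and desmosomes, 6 rose and 9 fell of 26, among the falls NECTIN4 (-1.62), P-cadherin CDH3 (-0.99) and the epithelial factor ELF3 (-0.74). Of the 10 epithelial markers of the line, MUC1 rose by 1.03 and the splicing factor ESRP1 by 0.37, while E-cadherin CDH1 fell by 0.69 and EPCAM by 0.30; KRT7 and GRHL2 did not pass. Squamous lineage factors gave 4 rises and 7 falls of 18. KLF4 had 39.8, 39.4 and 42.7 CPM in PRT3789, against 11.6, 12.9 and 10.2 CPM in DMSO (log2FC 1.81), KLF5 rose by 0.81 and SOX2 by 0.74, and VGLL1, another TEAD cofactor, fell by 1.36. Lung and endoderm lineage genes gave 4 rises and 2 falls of 19, or 3 and 1 of 17 without genes high in 1 library, with FOXA1 at 0.71.

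More mesenchymal and contractile genes fell than rose. Of 34 mesenchymal genes tested, 7 rose and 17 fell, with a median of -0.63. SPARC, a matricellular protein, had 50.6, 45.5 and 43.9 CPM in PRT3789, against 317, 299 and 279 CPM in DMSO (log2FC -2.68, SE 0.09, adjusted p = 3.8e-13). TPM1, an actin-coating tropomyosin, had 188, 197 and 185 CPM in PRT3789, against 722, 789 and 811 CPM in DMSO (log2FC -2.03). SNAI2, a repressor of epithelial genes, fell by 2.22, whereas CAV1, the coat protein of caveolae, rose by 1.53 and ZEB1 by 0.44. Contractile and troponin genes gave 2 rises and 6 falls of 11, TAGLN (-2.00) and TPM4 (-0.84) among them. Collagens were balanced, at 8 rises and 9 falls of 23. The basement membrane pair COL4A1 (-1.54) and COL4A2 (-1.36) fell and COL4A5 rose by 1.13. Among integrins and laminins 5 rose and 11 fell of 25. ITGA3 had 250, 233 and 239 CPM in PRT3789, against 743, 759 and 687 CPM in DMSO (log2FC -1.60), ITGB6 fell by 1.92 and LAMB1 by 1.03, and ITGA1 rose by 1.15. Every PRT3789 library of ITGA3 was below every DMSO library. Metalloproteases and their inhibitors gave 7 rises and 9 falls of 21, or 7 and 8 of 20 without genes high in 1 library, with MMP2 (-2.01), TIMP1 (-1.69) and ADAM28 (-1.63) lower and ADAMTS5 (2.04) higher. Of 16 plasminogen and coagulation genes 2 rose and 7 fell, or 2 and 6 of 14 without genes high in 1 library, among them tissue factor F3 (-1.48) and the urokinase receptor PLAUR (-1.05). Urokinase PLAU itself had 28.7, 22.0 and 58.3 CPM in PRT3789, against 258, 276 and 282 CPM in DMSO (log2FC -2.90), with replicate 3 of PRT3789 above its group.

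Receptor and growth factor genes moved in both directions. Of 31 receptor tyrosine kinases tested, 10 rose and 11 fell. FGFR2 had 17.9, 15.1 and 16.8 CPM in PRT3789, against 101, 104 and 104 CPM in DMSO (log2FC -2.63, SE 0.09), and EPHA2 and EPHB2 also fell (log2FC -1.79 and -2.23). EGFR had 877, 826 and 872 CPM in PRT3789, against 483, 420 and 414 CPM in DMSO (log2FC 0.97, adjusted p = 3e-05; named after its values were seen), and EPHA1 rose by 0.90. All 3 PRT3789 libraries were low for FGFR2 and high for EGFR. Among 28 ligands 6 rose and 8 fell. Besides KITLG, NRG1, a ligand of ERBB3 and ERBB4, had 48.3, 47.6 and 44.9 CPM in PRT3789, against 16.7, 16.1 and 14.3 CPM in DMSO (log2FC 1.58), while the EGFR ligand HBEGF fell by 1.16 and the AXL ligand GAS6 by 1.58. MAPK feedback genes dampen the same receptors. Their list gave 10 rises and 6 falls of 22, with the receptor EPHA2 counted again among the falls. In it DUSP4 rose by 1.60 and ERRFI1 by 0.85, and DUSP10 fell by 1.55. YAP/TEAD factors and targets gave 14 rises and 11 falls of 33 with a median of 0.12, but 12 rises and 14 falls with a median of -0.04 once the length trend was removed, so the balance of the list turned. It held VGLL2 among the rises and CCN2 (-1.42) and LIMA1 (-1.05) among the falls.

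Hedgehog genes were called in 10 of 11 cases, 6 rises and 4 falls, with a median of 0.59. Hedgehog ligands act through the receptor PTCH1 to activate GLI factors, and GLI1, PTCH1 and HHIP are themselves targets of the pathway. GLI1 had 19, 15.4 and 17.4 CPM in PRT3789, against 3.32, 3.74 and 2.83 CPM in DMSO. PTCH1 had 33.0, 33.2 and 36.0 CPM in PRT3789, against 16.7, 15.6 and 13.7 CPM in DMSO (log2FC 1.15). All of these PRT3789 libraries were above the DMSO libraries, as were those of HHIP (2.24) and the coreceptor CDON (1.09), while the coreceptor GAS1 fell by 0.91. More Wnt genes fell than rose, at 4 rises and 17 falls of 33 with a median of -0.27, or 3 and 19 with the length trend removed. The ligands WNT7A (-3.43), WNT7B (-2.23) and WNT9A (-1.09) fell, and so did the secreted antagonist SFRP1, with 26.0, 28.8 and 25.7 CPM in PRT3789, against 117, 101 and 100 CPM in DMSO. In the TGF-beta and BMP list 9 rose and 14 fell of 41, or 9 and 18 with the length trend removed. BMP4 had 67.9, 66.9 and 68.4 CPM in PRT3789, against 163, 170 and 175 CPM in DMSO (log2FC -1.32), and its antagonist NOG had 58.5, 56.1 and 61.3 CPM in PRT3789, against 20.7, 20.8 and 18.6 CPM in DMSO (log2FC 1.55). Ligand and antagonist thus stood on opposite sides, and FSTL1, a relative of FSTL5, fell by 1.34. Notch genes gave 6 rises and 4 falls of 20, JAG2 (1.24) and HES4 (1.34) up and LFNG (-2.52) down.

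Cell cycle genes fell together and by small folds. Of 54 G2/M phase genes tested none rose and 50 fell (53 with the length trend removed), with a median log2FC of -0.78, and of 43 S phase genes none rose and 28 fell, with a median of -0.30. CDC20, which activates the anaphase-promoting complex, had 72.2, 70.9 and 72.5 CPM in PRT3789, against 135, 140 and 133 CPM in DMSO (log2FC -0.92). The kinesin KIF20A had 75.8, 72.9 and 78.9 CPM in PRT3789, against 160, 142 and 145 CPM in DMSO (log2FC -0.98), and the thymidine kinase TK1 fell by 0.79. Every PRT3789 library of these genes lay below every DMSO library, which their choice by smallest p favours. The G2/M sum was 2868 to 2936 CPM in PRT3789 and 4626 to 4888 CPM in DMSO. CDK inhibitors, D cyclins and RB family genes were mixed, at 3 rises and 7 falls of 15. CDKN2B, which encodes the CDK4 and CDK6 inhibitor p15, had 266, 254 and 256 CPM in PRT3789, against 113, 113 and 117 CPM in DMSO (log2FC 1.18). CDKN1A, which encodes p21, had 16.1, 16.3 and 16.4 CPM in PRT3789, against 45.7, 47.3 and 46.0 CPM in DMSO (log2FC -1.51). The inhibitors thus moved in opposite directions, and CCND1, cyclin D1, rose by 1.09. Of 23 p53 targets 6 rose and 4 fell (43.5% called, near the 42.1% of all tested genes). Of 29 apoptosis regulators 6 rose and 11 fell, among the falls BCL2L1 (-0.67), BMF (-1.35) and BIK (-2.35). Of 13 MYC network genes 3 rose and 7 fell, MYC itself by 0.38. Homologous recombination and Fanconi anaemia genes gave 5 rises and 10 falls of 32, or 5 and 14 with the length trend removed, RAD51C (-0.68) and RAD54L (-0.63) among the falls.

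Glucose, lipid and stress genes changed as individual members. Of 35 glycolysis and hypoxia genes 9 rose and 12 fell, or 8 and 10 with the length trend removed. SLC2A1, the glucose transporter GLUT1, had 36.6, 39.7 and 35.2 CPM in PRT3789, against 282, 262 and 237 CPM in DMSO (log2FC -2.81, SE 0.13), while ADM, adrenomedullin, had 129, 129 and 132 CPM in PRT3789, against 28.5, 32.5 and 33.6 CPM in DMSO (log2FC 2.05). These hypoxia-responsive genes were thus lower and higher, each in all 3 PRT3789 libraries. In cholesterol synthesis 1 rose, TM7SF2 (1.05), and 12 fell of 25 (2 and 14 with the length trend removed), among them the sterol sensor INSIG1 (-1.17) and MVK (-0.83). In fatty acid and lipid metabolism 8 rose and 8 fell of 33 (10 and 11 with the length trend removed), with SCD and DGAT2 (1.22) up and LPIN1 (-1.12) down. The unfolded protein and integrated stress response list gave 3 rises and 15 falls of 27, XBP1 (-0.62), HERPUD1 (-0.60) and the amino acid transporter chain SLC3A2 (-1.04) among the falls. The list of NRF2 targets and antioxidants gave 3 rises and 10 falls of 24 (5 and 12 with the length trend removed). It also held NFE2 (-4.75) among its falls and NFE2L1 (0.54) among its rises. Other falls included TKT (-1.0) and TALDO1 (-0.78) of the pentose phosphate pathway. Vacuolar proton pump subunits gave 4 rises and 6 falls of 20. The kidney-type subunits ATP6V1B1 and ATP6V0A4 (-4.54) fell most, and ATP6V1B1 had 1.07, 0.953 and 0.564 CPM in PRT3789, against 32.1, 32.2 and 29.6 CPM in DMSO.

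Some short, abundant housekeeping transcripts fell by small folds. Of 70 ribosomal protein genes none rose and 19 fell, with a median of -0.40, and their share of counts was 4.8% ± 0.247 in PRT3789 and 6.02% ± 0.71 in DMSO (SD, n = 3 each). Nuclear oxidative phosphorylation genes gave 7 falls of 35 and constitutive proteasome genes 7 falls of 31, close to the 20.9% of all genes that fell. With the length trend removed, 23 ribosomal protein genes fell and none rose, 9 proteasome genes fell and 2 rose, and the medians were -0.29 for ribosomal proteins, -0.11 for oxidative phosphorylation and -0.08 for the proteasome. Of 13 mitochondrially encoded genes 1 was called, MT-ND6, and its libraries overlapped. MT-ND6 lost its call in 6 alternative settings, with an edgeR adjusted p of 0.13 with the times fitted apart and 0.062 to 0.084 under 4 left-out libraries (PRT3789 replicates 1 and 3, DMSO replicates 2 and 3) and the length trend removed.

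Neuronal and surface genes held some of the larger changes. Of 19 neuroendocrine and neuronal genes 7 rose and 6 fell. MAP2, a dendritic microtubule protein, had 468, 502 and 491 CPM in PRT3789, against 165, 144 and 168 CPM in DMSO (log2FC 1.61), and the synaptic vesicle protein SYP had 8.00, 7.75 and 6.76 CPM in PRT3789, against 0.671, 1.05 and 1.21 CPM in DMSO (log2FC 2.93). The adhesion molecule L1CAM had 7.08, 5.01 and 4.97 CPM in PRT3789, against 89.2, 82.0 and 68.5 CPM in DMSO (log2FC -3.81, SE 0.19). MAP2 and SYP were thus higher and L1CAM lower in every PRT3789 library. Surface targets of antibody-drug conjugates gave 4 rises and 12 falls of 21, VTCN1, ALPP, F3 and LY6E (-2.26) among the falls, or 4 and 11 of 19 without genes high in 1 library. Ion channels and transporters of epithelia gave 3 rises and 12 falls of 25, with the potassium channel KCNN4 (-2.70) lower and the cation channel TRPM4 (1.44) higher. Regulators of G protein signalling gave 2 rises and 2 falls of 12, RGS2 up and RGS3 (-0.94) and RGS10 (-0.98) down.

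**Figure D4:**
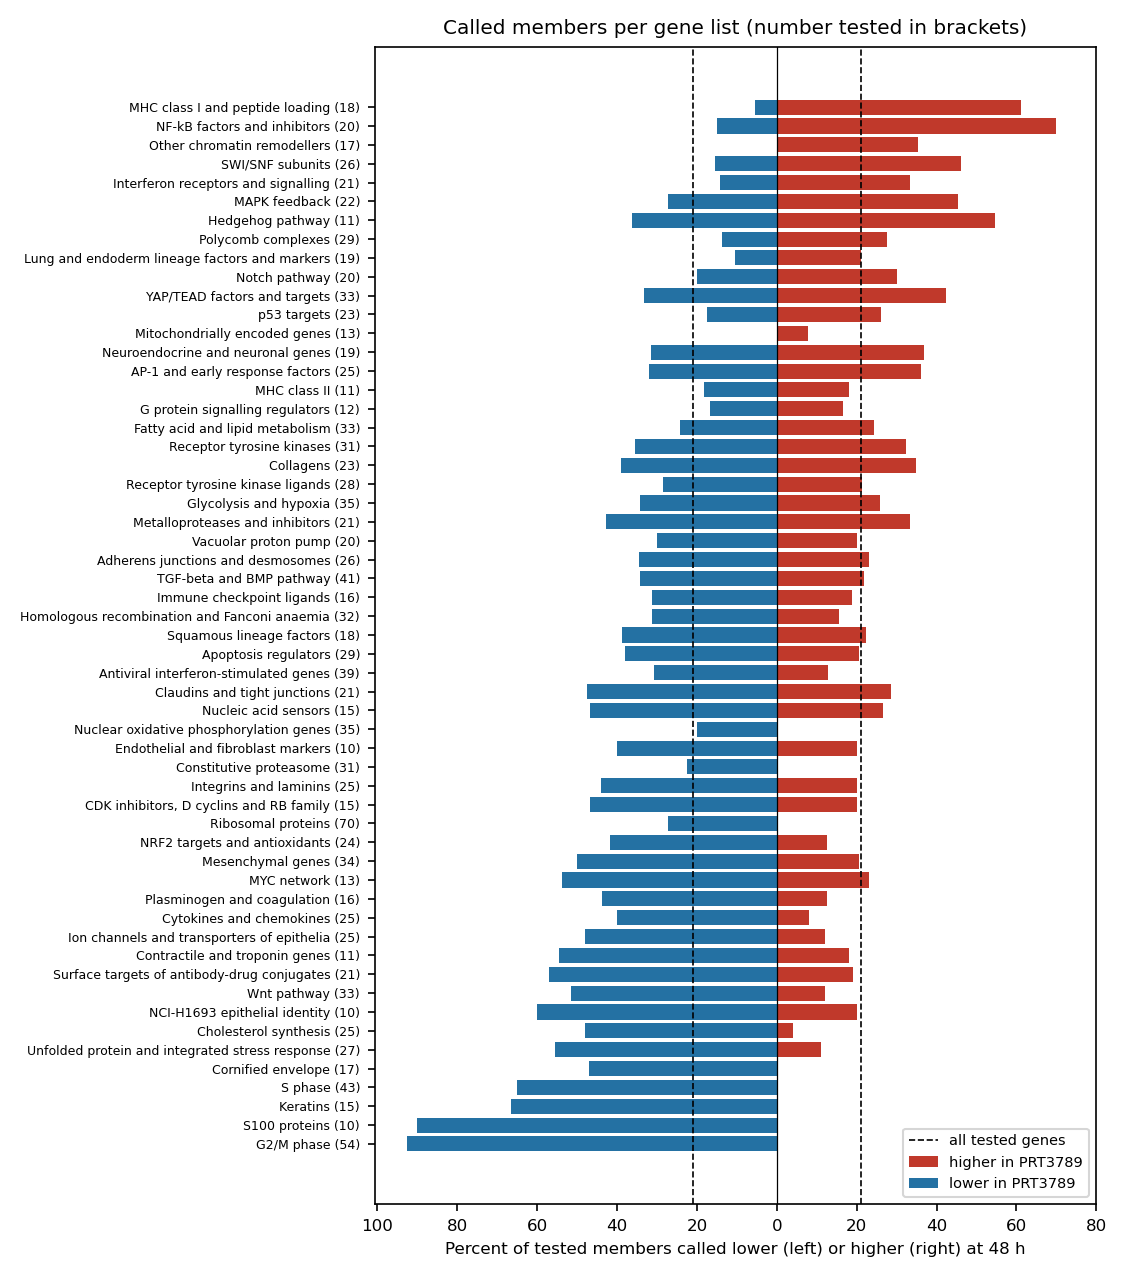
Percent of tested members called higher (right, red) or lower (left, blue) in PRT3789 at 48 h for each gene list with at least 10 tested members, with the number tested in brackets. Dashed lines mark 21.2% higher and 20.9% lower over all tested genes; NF-kB and MHC class I lists reach farthest to the right, and G2/M phase, S100 proteins and keratins to the left.

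The 48 h effect was set beside those of the same libraries' neighbours in time, each measured against its own DMSO. Of the 48 h rises, 174 (5.04%) were also called higher at 6 h, which is 83.3% of the 209 rises at 6 h, and of the 48 h falls 423 (12.4%) were also called lower at 6 h, 85.3% of 496; at 6 h 4.33% of the tested genes were called. The test of the difference itself called 3132 genes (19.2%): the effect of PRT3789 was higher at 48 h than at 6 h for 1438 genes (8.83%) and lower for 1694 (10.4%). It made 1361 of the 48 h rises and 1628 of the 48 h falls larger than at 6 h, and gave no call for 2090 rises and 1767 falls. GASK1B had a log2FC of 0.23 at 6 h and 5.27 at 48 h, and VTCN1 had -0.70 at 6 h and -6.41 at 48 h. TAP1 stood at 0.46 and 3.26, and both times passed the test. Other genes had most of their change at 6 h. NOG had 1.53 at 6 h and 1.55 at 48 h, NECTIN4 had -1.66 and -1.62, CLDN4 had -1.07 and -1.33 and MARVELD3, a tight junction protein, had -0.64 and -0.62, with no call for a difference between the times. ELF3 stood at -1.28 at 6 h and -0.74 at 48 h, a smaller fall by the test of the difference (change 0.54). GBP3 had -0.88 at 6 h, where it fell, and -0.15 at 48 h, where it did not pass, and the difference was called (change 0.73).

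At 6 h no G2/M phase gene was called lower and 1 was called higher, against 50 falls at 48 h, and the difference was called for 46 of the 54. No S100 gene was called at 6 h, and the effect was lower at 48 h than at 6 h for 8 of the 10. Antiviral interferon-stimulated genes already held 11 falls at 6 h, against 12 at 48 h and 18 at 72 h. Of the 39, the effect was higher at 48 h than at 6 h for 9 and lower for 5. Of NF-kB genes 3 rose at 6 h and 14 at 48 h, and by the test of the difference the effect was higher at 48 h for 10 and lower for 1.

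Of the 48 h rises 2575 (74.6%) were also called higher at 72 h, 74.0% of the 3478 rises there (43.4% of tested genes were called at 72 h), and of the 48 h falls 2739 (80.5%) were also called lower, 76.3% of 3591. The edgeR test of the change between 48 h and 72 h called 0 genes (smallest adjusted p = 0.0582, 1476 genes at an unadjusted p under 0.05), limma-voom called 0, and DESeq2 called 65 higher and 38 lower. A missing call does not show that the effects were equal. FSTL5 had a log2FC of 5.66 at 48 h and 6.05 at 72 h, RGS2 had 3.08 and 3.64, GBP2 had -4.45 and -5.02, and SCD had 1.13 and 0.44.

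**Figure D5:**
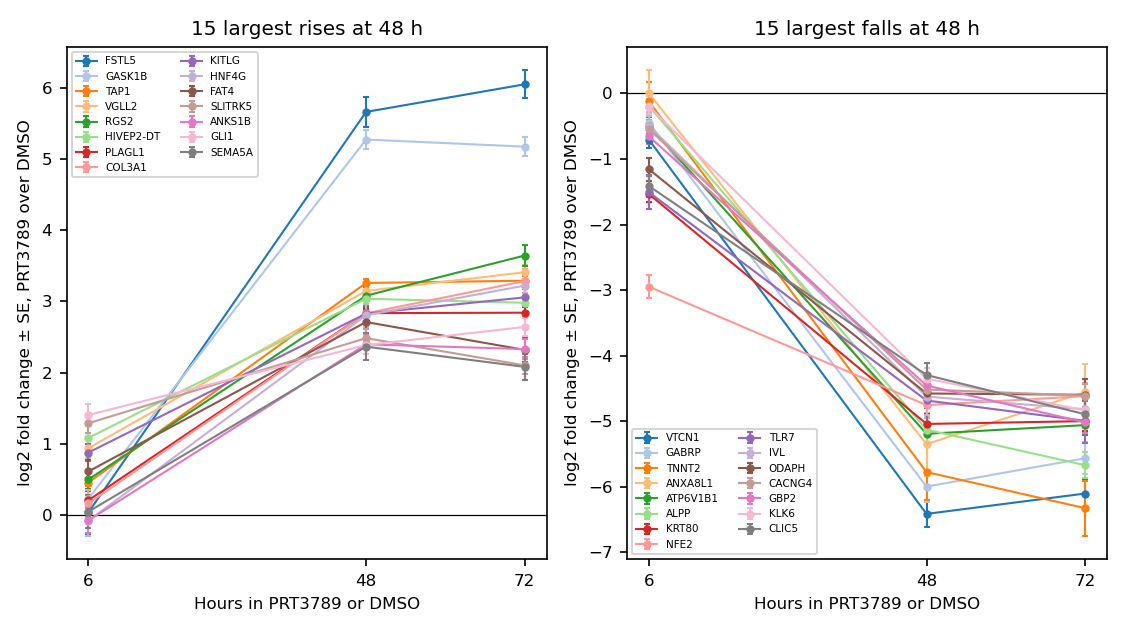
Log2 fold change of PRT3789 over DMSO at 6, 48 and 72 h, each against the DMSO libraries of its own time, for the 15 largest rises (left) and 15 largest falls (right) of 48 h; points are edgeR estimates and bars are ± SE. FSTL5 and GASK1B are near 0 at 6 h and above 5 at 48 h, and NFE2 is already near -3 at 6 h.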

How the data were processed

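Poly(A) RNA from NCI-H1693 cells in 18 libraries was sequenced as stranded paired reads of 150 bases, per the labels' protocols. The deposited table holds expected counts per gene, which the authors made with nf-core/rnaseq 3.17.0 (Trim Galore, STAR and RSEM, GRCh38 p.14, release 110), per the series' design text; single tool versions are not given in the sources used here. From there, expected counts were rounded where not whole and 16291 of 43236 genes passed edgeR's filter on low counts. Robust quasi-likelihood tests (edgeR 4.0.16, limma 3.58.1, R 4.3.3) were fitted over all 18 libraries, 1 mean per group, with TMM factors and Benjamini-Hochberg adjustment over all tested genes. DESeq2 1.42.0 and limma-voom were alternatives.

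The members and the 60 gene lists were chosen with earlier results of these data known. Named genes were SMARCA2, SMARCA4, KRT80 and PLAU, then the 15 largest rises and falls by log2FC and the 10 largest by difference of mean CPM among called genes of at least 5 CPM whose groups did not overlap. The 4 members of each list with the smallest p and the 5 largest changes of effect per direction between times were added. ARID1B, B2M, CDH1, EGFR, EPCAM, ESRP1, GRHL2, HLA-B, HLA-C, KRT7, NLRC5, PTCH1, TNFAIP3, ZEB1, and the marker genes and genes high in 1 library given as examples, were chosen after their values were seen. Depth was 23154484 to 31094797 counts per library. On simulated data, 200 of 16291 genes were changed, all with a mean of at least 1 CPM, and each gene had the same spread in all groups. Of 50 genes changed by each fold the 48 h test recovered 62% at 1.5-fold, 86% at 2-fold, 100% at 4-fold and 98% at 8-fold. The real comparison had 6853 calls and a spread that differed between groups, so these rates may not hold for it. Of the tested genes, 15962 matched a RefSeq gene by symbol. Promoter windows (RefSeq, GRCh38.p14) were at hand for fewer, 12540 of the 16291 tested genes. They covered 756 of the 1093 falls and 528 of the 714 rises of at least 2-fold. The motif shares hold for genes with a window, and KRT80 and NFE2 were among those without one.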

Additional observations from a re-analysis of the deposited data

Results flagged for a closer look

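The effect of PRT3789 differed between 48 h and 6 h by edgeR's test of the difference, with 1438 genes higher and 1694 genes lower at 48 h. Among genes averaging 5 CPM or more in the 12 libraries of 6 h and 48 h, the largest positive changes of log2FC were in FSTL5 (5.63), GASK1B (5.04), HNF4G (2.89), RNA5-8SN1 (2.87) and RNA5-8SN2 (2.87). RNA5-8SN1 and RNA5-8SN2 are copies of the 5.8S ribosomal RNA between which reads can be split, so their values are uncertain, and neither was called at 48 h. The largest negative changes were in VTCN1 (-5.71), TNNT2 (-5.65), GABRP (-5.55), ALPP (-4.94) and SPRR3 (-4.84).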

How the results depend on the processing

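The 48 h counts of 3451 higher and 3402 lower stayed within 1.5 times under each alternative for normalization, filter, test, block, length and left-out library, with 2662 to 3278 higher and 2964 to 3263 lower when 1 library was left out. Asking for at least 2-fold left 714 higher and 1093 lower. Total counts in place of TMM gave 3980 higher and 2933 lower, with the median log2FC shifted by 0.0568. Deviations of same-numbered PRT3789 and DMSO libraries correlated at 0.251 for replicate 1, -0.0383 for replicate 2 and -0.111 for replicate 3. Of the 6 libraries, 2 correlated best with their own number in the other group. The replicate block within each time gave 3619 higher and 3577 lower, the block over all groups 3490 and 3410. Of 244 called named genes, 231 kept their call in all 18 settings and 0 reversed. CLTC, PSME2, MT-ND6, HLA-DPA1 and HLA-DMA were among the 13 that lost it. Of the uncalled named genes, SMARCA2 passed in 4 settings and MT-ND5 in 3. ELOB and RBX1 passed in 2 each, and CUL2, MT-CYB and MT-ND2 in 1 each. For the change between 48 h and 6 h, fitting those times apart gave 932 higher. For the change between 72 h and 48 h, which had 0 calls, the counts were 2 higher and 1 lower without a filter, 65 and 38 with DESeq2, 125 and 169 with those times fitted apart, 1 and 1 with the block within each time, 12 and 11 with the length trend removed (added after seeing the data), and 0 to 7 higher and 0 to 1 lower with 1 library left out, the highest without DMSO replicate 1. Uncalled values changed sign in SMARCA4 (-0.036 with the length trend removed, -0.018 to 0.13 with 1 library left out), UBE2M (0.066 with the length trend removed), GBP1 (-0.057 to 0.24 with 1 library left out) and PTPRC (-0.21 to 0.78 with 1 library left out); the cause was not tested. Folds of genes near 0 CPM in a group are limited by depth.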
